A study of Mus musculus with 6 samples.

Results

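Keratins are the intermediate filament proteins of epithelial cells. Each filament is built from pairs of an acidic type I and a basic type II keratin, and the pair a cell makes is a classical mark of its kind: *Krt5* with *Krt14* in the basal layer of stratified epithelia, *Krt1* with *Krt10* above it, *Krt4* with *Krt13* in mucosa, *Krt8* with *Krt18* in simple epithelia. In the developing tooth the dental epithelium derives from oral epithelium, and its inner enamel epithelium (IEE) lies against the mesenchyme of the dental papilla and gives rise to the ameloblasts that secrete enamel. The keratin genes were taken as every row of the deposited expression table whose symbol was Krt followed directly by a digit, so that the keratin-associated proteins were left out. There were 47 such rows among 18152 genes. Of these, 26 reached 1 TPM (a level scaled for transcript length and for the library total) in at least 1 library, 16 did so in every library, and 21 stayed under 1 TPM throughout.

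RNA came from the IEE of the mandibular first molar of mouse embryos at E18.5, cut from frozen head sections by laser capture microdissection, on a C57BL/6J background. The controls were Kdf1 fl/fl embryos, named control or WT in the sample labels, and the mutants were K14-Cre;Kdf1 fl/fl embryos, named cKO or Kdf1 deletion, with 3 libraries each. Both groups carried the floxed *Kdf1* alleles, and only the mutants carried the Cre transgene, so the transgene and the loss of *Kdf1* (keratinocyte differentiation factor 1) cannot be told apart. Cre was driven by the keratin 14 promoter, which is active in epithelia that express *Krt14*, itself one of the genes described here, and the cells dissected were not sorted. The labels call the libraries biological replicates without saying whether each came from its own embryo, and p-values then measure only the spread between these libraries.

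Library totals lay between 14713918 and 16675133 counts, so that the limit a count of 0 allows (3 counts) was 0.182 to 0.198 CPM. CPM here is the count scaled for the library total and its TMM normalisation factor, and not for transcript length. *Kdf1* was at 53.2, 47.05 and 48.9 TPM in the controls and at 0, 0.08 and 0 TPM in the cKO libraries, matching the labels. Dissected tissue holds several cell types, and in bulk RNA fewer cells of a type and less RNA per cell cannot be told apart. Of 14 tested dental epithelium markers 12 had a log2 fold change below 0 (median -0.83), while 9 of 13 mesenchyme markers (median 1.49), 9 of 9 endothelium markers (median 0.93) and 9 of 10 immune markers (median 1.27) were above 0. The summed level of the dental epithelium markers was 6988 to 37000 TPM in the controls and 1948 to 4010 TPM in the cKO libraries, most of it in the controls from the enamel matrix genes *Amelx*, *Ambn* and *Enam* (4211 to 34542 and 117 to 973 TPM). Without these 3 genes the sums overlapped, at 2170 to 2777 TPM in the controls and 1590 to 3037 TPM in the cKO libraries, and 9 of 11 tested markers were below 0 (median -0.71). The summed level of the mesenchyme markers was 1618 to 8961 and 4500 to 5807 TPM. Those of the endothelium markers were 194 to 260 and 243 to 729 TPM, and those of the immune markers 72.0 to 158 and 158 to 492 TPM. No defining marker of these lists was at 0 in all 6 libraries. The part of these markers in the keratin differences was not tested.

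The start-site regions of 6 keratins are shown, 4 of those called below (*Krt6a* and *Krt80* had no entry) with *Krt5*, the partner of *Krt14*, and *Krt18*, the most abundant keratin that was higher in every cKO library. They are the 250 bases before the annotated start, 5′ to 3′ on the gene's strand, from RefSeq on GRCm38.p6, where 31 of the 47 keratins had an entry. *Krt5* lies at chr15:101712906-101713155 (minus strand), *Krt14* at chr11:100206031-100206280 (minus strand), *Krt75* at chr15:101573905-101574154 (minus strand), *Krt7* at chr15:101412153-101412402 (plus strand), *Krt27* at chr11:99351119-99351368 (minus strand) and *Krt18* at chr15:102027966-102028215 (plus strand). Capitals mark matches on either strand to 6 patterns, which are TATAAA for the TATA box, TGANTCA for AP-1, GCCNNNGGC for AP-2, GGGCGG for the GC box, AACCNGTT for Grainyhead-like factors and TTGCNNAA for C/EBP, and an AP-2 match may overlap a GC box.
Krt5: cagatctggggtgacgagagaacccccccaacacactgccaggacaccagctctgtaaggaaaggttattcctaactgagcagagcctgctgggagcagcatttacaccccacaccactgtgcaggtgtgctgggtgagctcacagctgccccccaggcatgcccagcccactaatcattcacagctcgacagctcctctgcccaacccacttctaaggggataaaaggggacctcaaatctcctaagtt
Krt14: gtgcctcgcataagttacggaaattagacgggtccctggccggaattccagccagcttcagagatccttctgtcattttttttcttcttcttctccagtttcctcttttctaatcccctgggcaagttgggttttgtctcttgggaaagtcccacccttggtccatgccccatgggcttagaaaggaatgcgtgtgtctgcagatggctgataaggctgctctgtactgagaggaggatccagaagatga
Krt75: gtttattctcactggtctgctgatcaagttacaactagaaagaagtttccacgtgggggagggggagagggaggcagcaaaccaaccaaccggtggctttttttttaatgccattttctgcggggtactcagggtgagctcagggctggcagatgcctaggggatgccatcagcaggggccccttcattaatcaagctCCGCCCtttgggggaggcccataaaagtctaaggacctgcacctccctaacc
Krt7: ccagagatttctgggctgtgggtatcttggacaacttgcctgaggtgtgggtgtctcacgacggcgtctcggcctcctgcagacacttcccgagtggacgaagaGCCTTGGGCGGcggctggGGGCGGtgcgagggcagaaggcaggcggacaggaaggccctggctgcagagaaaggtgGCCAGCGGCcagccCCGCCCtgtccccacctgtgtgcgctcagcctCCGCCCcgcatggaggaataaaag
Krt27: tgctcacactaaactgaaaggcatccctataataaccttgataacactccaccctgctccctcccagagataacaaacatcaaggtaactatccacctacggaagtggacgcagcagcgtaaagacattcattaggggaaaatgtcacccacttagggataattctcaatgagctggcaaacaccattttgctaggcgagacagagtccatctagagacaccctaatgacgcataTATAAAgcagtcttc
Krt18: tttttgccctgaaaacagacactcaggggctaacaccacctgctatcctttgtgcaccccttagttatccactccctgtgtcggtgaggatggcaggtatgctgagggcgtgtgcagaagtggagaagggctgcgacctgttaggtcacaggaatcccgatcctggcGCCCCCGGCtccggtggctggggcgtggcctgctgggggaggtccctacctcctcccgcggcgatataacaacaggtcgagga

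The *Krt5* and *Krt14* windows held none of the 6 letter patterns. The *Krt7* window held 2 AP-2 matches and 4 GC boxes, *Krt75* 1 GC box, *Krt27* 1 TATA box and *Krt18* 1 AP-2 match. Over all keratins, TATAAA was present in 13 of 32 windows (40.6%) against 12.4% of 32851 windows in the whole table, and GGGCGG in 2 of 32 (6.25%) against 32.7%. The other patterns were in 2 (AP-1), 5 (AP-2), 0 (Grainyhead-like) and 3 (C/EBP) keratin windows, against 6.75%, 13.7%, 1.79% and 9.56% of all windows. These are matches of letters and not mapped binding sites.

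The first question was how keratin transcripts as a whole stood in the 2 genotypes. All 47 rows together made up 9653, 7197 and 11082 TPM in the controls and 4823, 4238 and 6247 TPM in the cKO libraries. Every cKO library lay under every control, and the means were 9311 ± 1965 and 5102 ± 1033 TPM (SD, n = 3), a log2 ratio of -0.87. Summed type I TPM was 4878 ± 1125 in the controls and 2591 ± 580 in the cKO libraries, and summed type II TPM 4430 ± 844 and 2508 ± 471. The ratio of type I to type II was 1.09, 1.05 and 1.15 in the controls and 1.12, 0.923 and 1.05 in the cKO libraries, with overlap between the groups. *Krt5*, *Krt14* and *Krt17* were the only keratins above 1000 TPM in any control library, and they formed 95.2 ± 0.636% of all keratin TPM in the controls and 94.2 ± 0.434% in the cKO libraries.

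**Figure D1:**
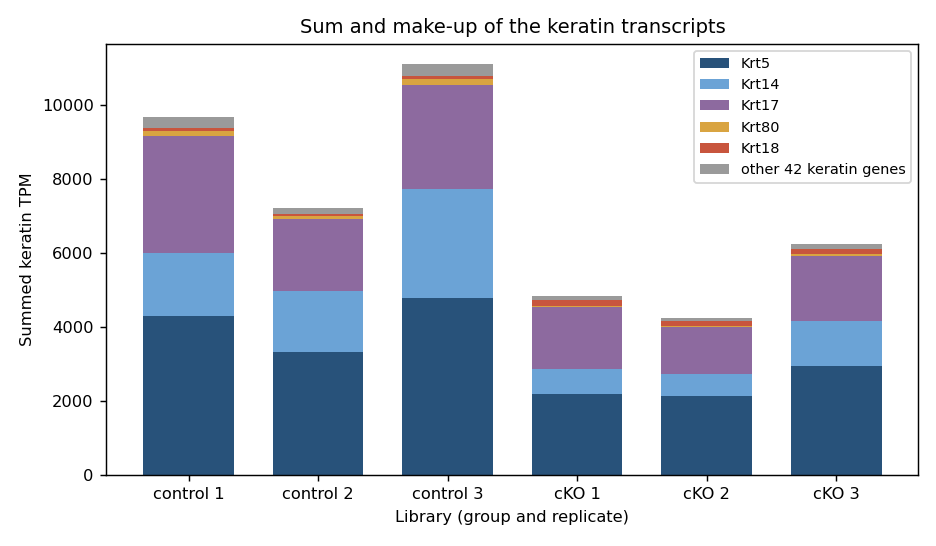
Summed TPM of the 47 keratin genes in each library (bars, linear axis from 0), split into the 5 genes with the highest levels and the other 42. The bars of the 3 cKO libraries reach 4823, 4238 and 6247 TPM and those of the controls 9653, 7197 and 11082 TPM, and *Krt5*, *Krt14* and *Krt17* fill most of every bar.

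Read counts were then compared gene by gene with edgeR's quasi-likelihood test over all 14131 genes that passed the filter on low counts, and a gene was called when its log2 fold change (cKO minus control) was at least 1 in size and its Benjamini-Hochberg adjusted p at most 0.05. The filter kept 23 keratins. It left out 24, of which *Krt4*, *Krt13* and *Krt16* had reached 1 TPM. A gene could enter through its higher group alone, and *Krt27*, *Krt73*, *Krt23* and *Krt24* each had a library under 10 counts. By this criterion 2 of 23 keratins fell, *Krt6a* and *Krt7*, and none rose. The criterion called 0.290% of all tested genes lower and 0.142% higher. The labels do not say that equal numbers mark pairs. Same-numbered libraries deviated together in these same data and were taken as pairs on that ground alone. The p-values with the block make no allowance for that choice and may be too small. For replicate 1 the correlation (0.13) was no higher than that of control 2 with cKO 1 (0.14). With the replicate number as a block 6 keratins fell (*Krt6a*, *Krt7*, *Krt14*, *Krt27*, *Krt75* and *Krt80*), where 1.92% of all genes were called lower. DESeq2 called the same 6 genes, with 1.88% of all genes called lower, and so did edgeR when cKO 3 was left out. No keratin rose in either, while 4.16% and 5.05% of all genes were called higher. At an adjusted p of at most 0.05 with any fold, the block and DESeq2 each called 9 keratins, the 6 and *Krt5*, *Krt17* and *Krt18*, against 9.87% and 12.6% of all genes (2 keratins and 0.545% by edgeR without the block). In either direction the full criterion called 0.432% of all genes by edgeR, 6.09% with the block and 6.94% with DESeq2. An unadjusted edgeR p of at most 0.05 was seen for 13 keratins and for 24.5% of all genes.

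Of the 23 tested keratins 18 had a log2 fold change below 0, with a median of -0.74, while over all genes tested 50.52% were below 0 and the median was -0.00426. A log2 fold change of at least 1 in size was seen for 8 keratins in the lower direction and 1 in the higher, against 2.90% and 9.23% of all genes. In CPM the 3 cKO libraries all lay under the 3 controls for 12 keratins (*Krt80*, *Krt27*, *Krt14*, *Krt6a*, *Krt73*, *Krt90*, *Krt17*, *Krt7*, *Krt82*, *Krt5*, *Krt75* and *Krt1*) and all above them for 2 (*Krt18* and *Krt24*). Such separation was seen in 16.2% of all tested genes in the lower direction and in 14.5% in the higher one. Without the filter, 25 keratins had a mean of at least 1 TPM over all 6 libraries, of which 19 had the lower mean in the cKO group and 6 the higher. The 19 include *Krt4* and *Krt13*, which reached that mean through control 3 alone. The matching share over all genes was not computed, so this count is description only.

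**Figure D2:**
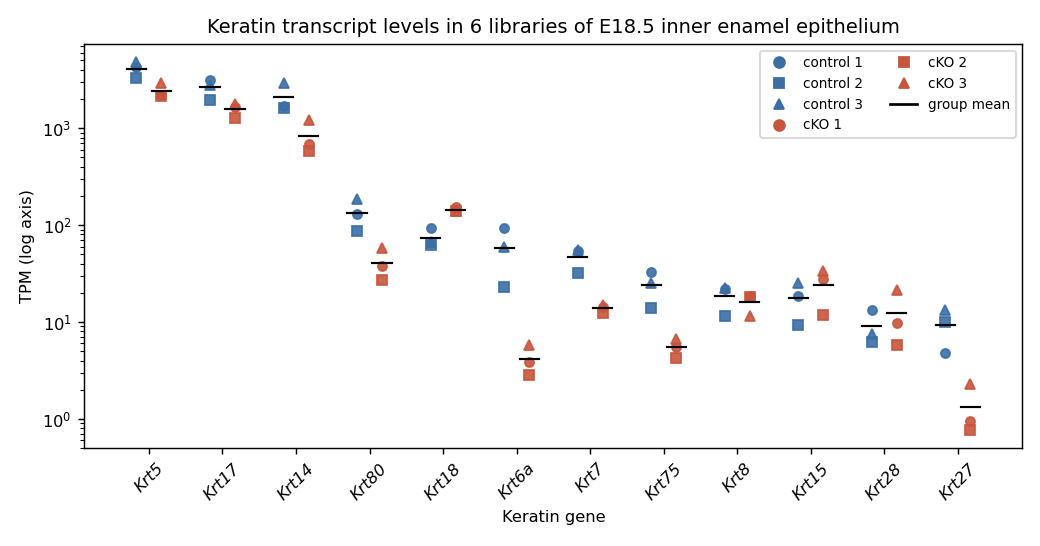
TPM of 12 keratin genes in each library on a log axis, with controls in blue, cKO libraries in red, one symbol per replicate number and a black line at each group mean. The groups do not overlap for *Krt5*, *Krt17*, *Krt14*, *Krt80*, *Krt6a*, *Krt7*, *Krt75* and *Krt27* (cKO lower) or *Krt18* (cKO higher), and they overlap for *Krt8*, *Krt15* and *Krt28*.

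Among the basal keratins, *Krt5* (gene 110308), the type II partner of the basal layer, stood at 4280, 3328 and 4777 TPM in the controls and 2185, 2129 and 2947 TPM in the cKO libraries. *Krt14* (gene 16664), its type I partner, stood at 1712, 1628 and 2944 TPM against 684, 582 and 1205 TPM. Both were lower in every cKO library than in any control, and for both the third library of each group was the highest. The log2 fold change of *Krt14* was -1.50 (SE 0.37, edgeR adjusted p = 0.084), and with the replicate block its adjusted p was 0.0068. That of *Krt5* was -0.83 (SE 0.25, edgeR adjusted p = 0.118, with the block 0.048), under the fold criterion. The ratio of *Krt14* to *Krt5* TPM within a library was 0.502 ± 0.109 in the controls and 0.332 ± 0.0696 in the cKO libraries (SD, n = 3), with overlapping groups (exact permutation test, two-sided, p = 0.20). It was lower in the cKO library of each of the 3 same-numbered pairs, a number too small for a sign or permutation test of pairs to pass 0.05.

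*Krt15*, a type I keratin of basal cells and of hair follicle stem cells, had groups that overlapped. Its levels were 18.8, 9.28 and 25.0 TPM in the controls and 27.6, 11.8 and 33.5 TPM in the cKO libraries. The log2 fold change was 0.37 (SE 0.50, edgeR adjusted p = 0.68). In both groups replicate 2 was lowest and replicate 3 highest, and within each of the 3 same-numbered pairs the cKO library was the higher one (with the block, log2 fold change 0.38, SE 0.16, edgeR adjusted p = 0.16). The ratio of *Krt15* to *Krt14* was 0.00839 ± 0.00263 in the controls and 0.0294 ± 0.0101 in the cKO libraries, and the groups did not overlap. With 3 libraries against 3 the exact permutation test cannot go below p = 0.10, the value reached here (0.1375 adjusted over the 11 ratios computed), so no ratio could pass 0.05.

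The keratins of epithelial appendages and of the response to injury held the largest fold change of any tested keratin. *Krt6a* (gene 16687), a type II keratin of the hair follicle companion layer and of stressed epithelium, was at 93.5, 23.2 and 59.1 TPM in the controls and 3.90, 2.84 and 5.84 TPM in the cKO libraries. Every control was above every cKO library, although the controls spread widely among themselves. It fell by 3.87 on the log2 scale (SE 0.58, edgeR adjusted p = 0.0498, with the block 0.0083). This call was lost, at adjusted p of 0.11 to 0.21, when control 1, control 3, cKO 1 or cKO 2 was left out. *Krt6a* shares 62.0% of its 50-base transcript windows with other genes, 43.6% with *Krt6b*, so reads could be divided between them. *Krt6b* was at 0.29, 0.06 and 0.90 TPM in the controls and at 0, 0.06 and 0 TPM in the cKO libraries, too low to be tested.

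*Krt17* (gene 16667), a type I keratin of hair follicle, tooth and other appendages and a partner of the *Krt6* proteins, had the second highest group mean of the keratins on the TPM scale, although *Krt14* exceeded it in control 3. It stood at 3159, 1949 and 2794 TPM in the controls and at 1655, 1274 and 1761 TPM in the cKO libraries, without overlap. Its log2 fold change was -0.83 (SE 0.25, edgeR adjusted p = 0.114, with the block 0.040), under the fold criterion. The ratio of *Krt17* to *Krt5* was 0.636 ± 0.0882 in the controls and 0.651 ± 0.0921 in the cKO libraries, overlapping, with p = 0.50 by the exact permutation test and a log2 difference of 0.03. *Krt6a* to *Krt17*, in contrast, was 0.0209 ± 0.00885 against 0.00263 ± 0.000595, a log2 difference of -2.91 without overlap.

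*Krt16*, the other type I partner of *Krt6* proteins, was at 2.16, 0.68 and 1.94 TPM in the controls and at 0.56, 0.17 and 0.51 TPM in the cKO libraries. Each cKO library lay under each control, but the gene did not pass the filter and has no test. *Krt75* (gene 109052), a type II keratin of the companion layer that is also known from enamel, was at 32.7, 13.9 and 25.3 TPM in the controls and at 5.58, 4.29 and 6.68 TPM in the cKO libraries. The groups were apart, and the log2 fold change was -2.19 (SE 0.36, edgeR adjusted p = 0.056, with the block 0.0071). *Krt75* was called with the block, with DESeq2, without control 2, without cKO 3 and without the filter on low counts. The ratio of *Krt75* to *Krt5* was 0.00570 ± 0.00177 in the controls and 0.00228 ± 0.000269 in the cKO libraries, without overlap.

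*Krt80* (gene 74127), a type II keratin described near desmosomes, was the most abundant keratin after *Krt5*, *Krt17* and *Krt14* in the controls by TPM. It was at 129, 87.0 and 187 TPM in the controls and at 38.0, 27.2 and 58.0 TPM in the cKO libraries. No library of one group reached the range of the other. The log2 fold change was -1.79 (SE 0.40, edgeR adjusted p = 0.073, with the block 0.0035). An annotated gene on the opposite strand overlaps exons of *Krt80*, and the strand setting of the counting is not given in the sources used here. The same holds for *Krt5*, *Krt6a*, *Krt7*, *Krt8*, *Krt10*, *Krt75* and *Krt90*.

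The keratins of simple epithelia differed from each other in direction. *Krt7* (gene 110310), a type II keratin of glandular and ductal epithelium, was at 54.2, 32.0 and 55.9 TPM in the controls and at 14.3, 12.5 and 15.1 TPM in the cKO libraries. The cKO libraries were close to each other and all under the lowest control. *Krt7* fell by 1.83 on the log2 scale (SE 0.28, edgeR adjusted p = 0.0498, with the block 0.0075), a call that was lost in the same 4 leave-outs as that of *Krt6a*.

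*Krt18* (gene 16668), a type I keratin of simple epithelia, went the other way. It was at 94.4, 61.9 and 66.5 TPM in the controls and at 152, 140 and 141 TPM in the cKO libraries. All cKO libraries were above all controls and close to each other, with a log2 fold change of 0.90 (SE 0.18, edgeR adjusted p = 0.066, with the block 0.021), under the fold criterion. *Krt8* (gene 16691), its type II partner, was at 21.7, 11.6 and 22.3 TPM in the controls and at 18.6, 18.3 and 11.5 TPM in the cKO libraries. These groups overlapped, with a log2 fold change of -0.29 (SE 0.32, edgeR adjusted p = 0.61), and 29.7% of the *Krt8* windows are shared with other genes, mostly the pseudogene *Krt8-ps*. *Krt18* therefore exceeded *Krt8* in every library, 4.22 ± 1.18 times in the controls and 9.37 ± 2.53 times in the cKO libraries, without overlap (exact permutation p = 0.10). The ratio of *Krt7* to *Krt8* was 2.59 ± 0.144 in the controls and 0.922 ± 0.340 in the cKO libraries, again without overlap. As a share of all keratin TPM, *Krt18* was 0.812 ± 0.193% in the controls and 2.91 ± 0.565% in the cKO libraries.

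*Krt19*, a type I keratin of simple epithelia and progenitor cells that is also found in ameloblasts, was at 6.12, 2.95 and 5.59 TPM in the controls and at 4.84, 3.40 and 6.94 TPM in the cKO libraries. The groups overlapped, and the log2 fold change of -0.05 (SE 0.43, edgeR adjusted p = 0.95) changed sign with the scaling, to 0.02 when library size alone was used. *Krt23*, a type I keratin of simple epithelia, was at 0.84, 0.43 and 1.02 TPM against 0.76, 1.82 and 1.55 TPM, with overlap and a log2 fold change of 0.78 (SE 0.54, edgeR adjusted p = 0.41). *Krt24*, the other tested keratin without overlap in the higher direction, was at 0.89, 0.42 and 0.45 TPM against 1.23, 0.98 and 2.03 TPM, with a log2 fold change of 1.22 (SE 0.50, edgeR adjusted p = 0.19). It was singled out after its values were seen, and its control libraries held few counts.

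**Figure D3:**
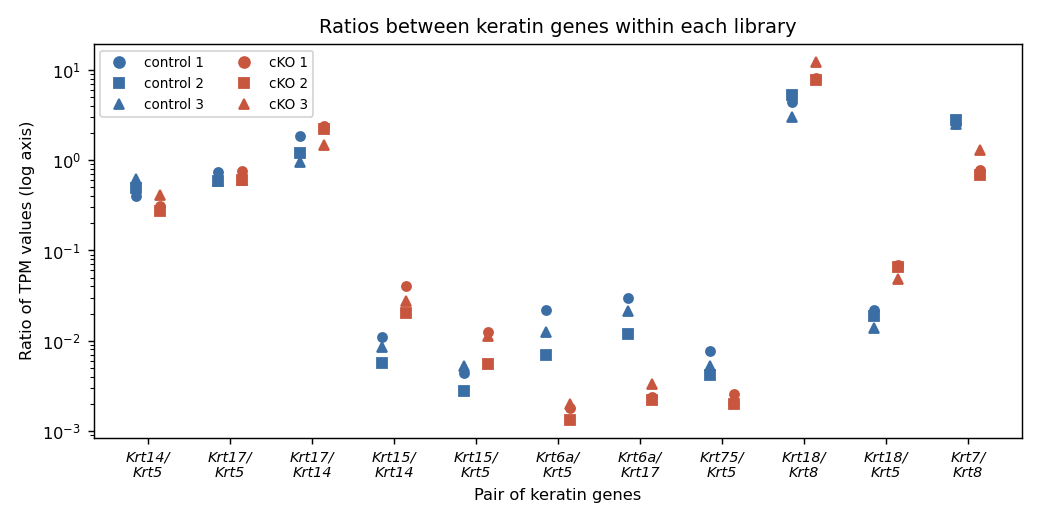
Ratio of the TPM of one keratin to another within each library on a log axis, for 11 pairs, with controls in blue and cKO libraries in red. *Krt17*/*Krt5* overlaps between the groups, *Krt18*/*Krt8* is higher in every cKO library (means 4.22 and 9.37) and *Krt6a*/*Krt5*, *Krt75*/*Krt5* and *Krt7*/*Krt8* are lower in every cKO library.

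The inner root sheath keratins, named for the sheath that surrounds a growing hair, gave values of both signs. *Krt27* (gene 16675), a type I member, was at 4.75, 9.97 and 13.2 TPM in the controls and at 0.94, 0.77 and 2.30 TPM in the cKO libraries. The groups were apart, and the log2 fold change was -2.84 (SE 0.59, edgeR adjusted p = 0.068, with the block 0.0096). *Krt28* (gene 70843), its neighbour on the chromosome and of the same class, was at 13.3, 6.24 and 7.53 TPM in the controls and at 9.73, 5.83 and 21.3 TPM in the cKO libraries. Its groups overlapped, with a log2 fold change of 0.41 (SE 0.54, edgeR adjusted p = 0.67), and without cKO 3 the sign turned, to -0.31. The type II inner root sheath keratins that pair with them were low: *Krt71* stayed under 1 TPM in every library, and *Krt73* was at 2.26, 1.55 and 1.21 TPM against 0.51, 1.16 and 0.69 TPM, with a log2 fold change of -1.12 (SE 0.45, edgeR adjusted p = 0.18).

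The suprabasal pair was expressed at low levels. *Krt1* (gene 16678) was at 3.57, 2.73 and 3.15 TPM in the controls and at 1.78, 1.99 and 2.08 TPM in the cKO libraries, and *Krt10* (gene 16661) at 6.23, 6.59 and 6.42 TPM against 4.73, 6.24 and 5.43 TPM. *Krt1* was lower without overlap (log2 fold change -0.75, SE 0.29, edgeR adjusted p = 0.168), whereas *Krt10* overlapped (-0.26, SE 0.24, edgeR adjusted p = 0.53). Both were far below *Krt5* and *Krt14* on the TPM scale. Among the hair keratins, *Krt82*, of the hair cuticle, was at 1.77, 3.55 and 2.70 TPM against 0.93, 1.33 and 1.33 TPM (log2 fold change -1.20, SE 0.38, edgeR adjusted p = 0.127).

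The mucosal pair *Krt4* and *Krt13* was abundant in 1 library. *Krt13* was at 0.16, 0.59 and 46.0 TPM in the controls and at 0.26, 0.24 and 0.24 TPM in the cKO libraries, and *Krt4* at 0, 0.18 and 22.2 TPM against 0, 0.18 and 0 TPM. Control 3 held 585 counts of *Krt13* and 410 of *Krt4*. The cornified mucosa genes *Sprr3* (2.35 TPM, 20 counts) and *Cnfn* (1.5 TPM, 6 counts) were above 0 in control 3 and at 0 in the other 5 libraries. Both were singled out after their values were seen. Among the tested keratinised epithelium genes, control 3 was the highest control by TPM for *Sbsn*, *Dmkn* and *Sfn*. It was not for *Lor*, *Tgm1*, *Krtdap*, *Calml3* or *Lypd3*. Control 3 was also the highest control for *Krt5*, *Krt14*, *Krt80*, *Krt27* and *Krt15*. The same held by a small margin over control 1 for *Krt7* (55.9 against 54.2 TPM) and *Krt8* (22.3 against 21.7 TPM). It was not the highest control for *Krt6a*, *Krt17*, *Krt75*, *Krt18* or *Krt28*. Without control 3 the summed keratin log2 ratio was -0.72 in place of -0.87, the log2 fold change of *Krt14* was -1.11 and that of *Krt27* -2.44, and no keratin met the edgeR criterion, while 10 had an unadjusted p of at most 0.05. The share of all genes at that p was not computed for that fit. Of 16 keratinised epithelium genes measured, 8 could be tested and 5 of these were below 0 (median -1.21), and their summed level was 320 to 452 TPM in the controls and 99.5 to 205 TPM in the cKO libraries. Most of that sum was *Sfn* (stratifin, 318 ± 54.8 and 96.9 ± 43.5 TPM). None of the 8 met the edgeR criterion, and 4 met it as lower with the block, against 1.92% of all genes. Their part in the keratin result was not tested.

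Mouse keratin genes lie in 2 clusters, and 22 of the rows fall on chromosome 11 and 25 on chromosome 15. Along chromosome 15, where the type II genes and, at the end next to *Krt8*, the type I gene *Krt18* lie, 11 genes were tested. All 10 type II genes were below 0, and *Krt18* was above 0. On chromosome 11 the 12 tested genes were mixed, and *Krt27* and *Krt28* lay side by side with opposite signs.

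**Figure D4:**
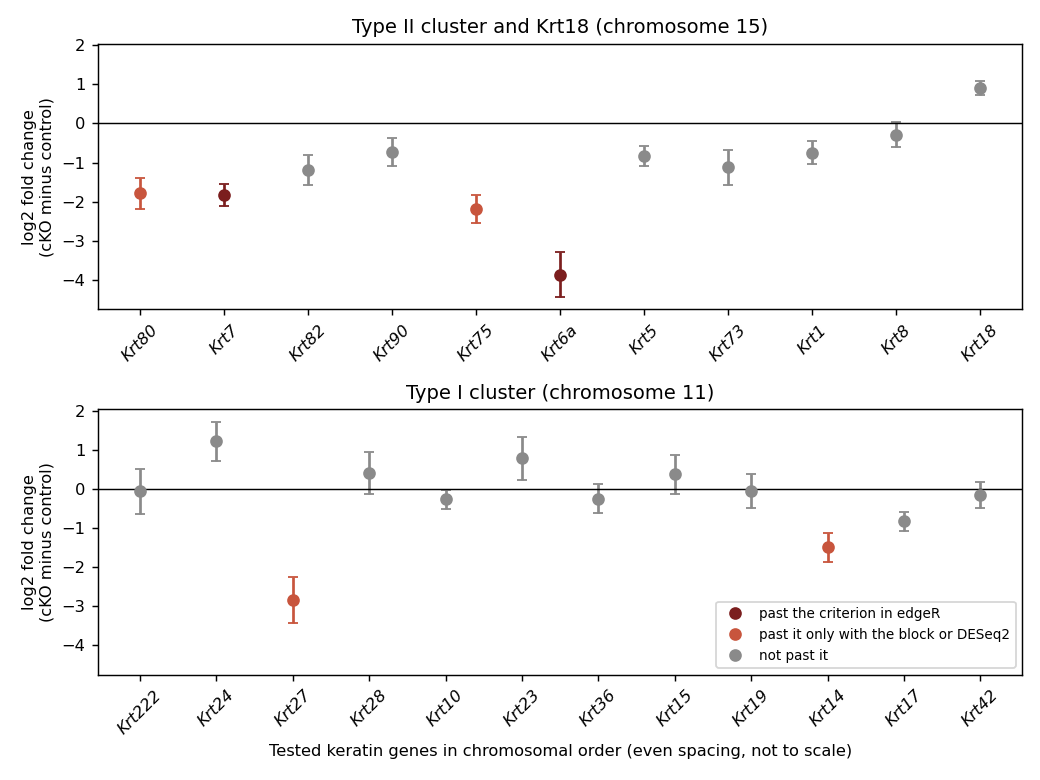
Log2 fold change (cKO minus control) of the 23 tested keratins in the order of the genes along chromosomes 15 and 11, evenly spaced, with bars of 1 SE. All genes on chromosome 15 but *Krt18* lie below 0, from -0.29 for *Krt8* to -3.87 for *Krt6a*, and chromosome 11 holds values on both sides of 0.

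Genes that work with keratins were read from lists. Keratin filaments end on desmosomes through plakins and armadillo proteins, and of 16 tested genes that link or organise them 14 were below 0 (median -0.79), 3 met the edgeR criterion as lower and 4 did with the block, where 50.52% of all genes were below 0 and 0.290% and 1.92% were called lower. *Ppl* (periplakin) was at 51.4, 40.2 and 45.8 TPM in the controls and at 13.6, 10.1 and 12.4 TPM in the cKO libraries. It fell by 1.99 on the log2 scale (SE 0.16, edgeR adjusted p = 0.025). *Evpl* (envoplakin) fell by 1.41 (SE 0.18) and *Pkp1* (plakophilin 1) by 1.12 (SE 0.17), both with an edgeR adjusted p of 0.0498. This value, shared with *Krt6a* and *Krt7*, lies at the edge of the criterion. Over all genes 61 met the criterion by edgeR, and 7 did with DESeq2 size factors in edgeR. The desmosomal cadherin *Dsg3* had a log2 fold change of -1.49 (SE 0.28), with an edgeR adjusted p of 0.064 and of 0.020 with the block. The other desmosomal cadherins of the list overlapped between the groups, at log2 fold changes of 0.09 (*Dsg2*), -0.34 (*Dsc2*) and 0.13 (*Dsc3*). Of the 8 other tested intermediate filament genes none met the criterion by edgeR, with the block or by DESeq2, and 4 were below 0 and 4 above. *Vim* (vimentin, the filament of mesenchymal cells) was at 475, 888 and 439 TPM in the controls and at 1225, 964 and 765 TPM in the cKO libraries, with overlap.

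Of 23 transcription factors known to act on keratin genes, all tested, edgeR called 2 lower and 1 higher, and the block called 4 lower and 1 higher. The shares over all genes were 0.290% lower and 0.142% higher by edgeR, and 1.92% and 4.16% with the block. *Grhl3* (Grainyhead-like 3, a factor of barrier formation) was at 11.04, 8.75 and 6.45 TPM in the controls and at 1.01, 0.66 and 0.66 TPM in the cKO libraries. It fell by 3.55 on the log2 scale (SE 0.30, edgeR adjusted p = 0.025). *Zfp750*, a factor of terminal epidermal differentiation, fell by 2.00 (SE 0.28, edgeR adjusted p = 0.0498), from 107 ± 20.04 to 28.0 ± 8.62 TPM. *Lef1*, a mediator of Wnt signalling, rose by 1.30 (SE 0.18, edgeR adjusted p = 0.0498), from 10.2 ± 1.56 to 29.4 ± 7.31 TPM. The adjusted p of *Zfp750* and *Lef1* is the same value at the edge of the criterion as that of *Krt6a* and *Krt7*. *Ovol1* (log2 fold change -1.32, edgeR adjusted p = 0.081) and *Foxn1* (-1.84, edgeR adjusted p = 0.073), factors of epidermal and hair differentiation, were called with the block, at adjusted p of 0.026 and 0.034. *Trp63*, the master factor of stratified epithelia, was at 237, 203 and 200 TPM against 171, 125 and 194 TPM and was not called.

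The keratins left out by the filter were mostly at low counts. Apart from *Krt4* and *Krt13*, no keratin left out by the filter exceeded 26 counts or 2.16 TPM in any library. In CPM 3 of the 24 were lower in every cKO library than in any control (*Krt16*, *Krt84* and *Krt86*) and 6 were higher (*Krt12*, *Krt20*, *Krt26*, *Krt78*, *Krt79* and *Krt88*), and these 6 had at most 10 counts in any library. When edgeR was run without the filter, 7 of the 24 had an unadjusted p of at most 0.05, 6 of them lower and 1 higher, and none had an adjusted p of at most 0.05. The matching shares over all genes left out by the filter were not computed. These counts are therefore description only. *Krt84*, a hair keratin, was at 0.99, 0.48 and 0.57 TPM in the controls and at 0.11, 0.10 and 0.14 TPM in the cKO libraries. Its cKO libraries lay at 2 or 3 counts, and it was singled out after its values were seen. *Krt42*, a type I keratin known from nail, and the keratin-like *Krt222* were at higher levels, 3.93 to 8.29 and 1.58 to 5.92 TPM over the libraries. These 2 genes, *Krt36* and *Krt90* were tested and not called, at adjusted p of 0.245 or more by edgeR.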

How the data were processed

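Laser-captured IEE RNA was made into TruSeq libraries and sequenced by the authors. Their processing notes name BWA 0.7.12, Picard 2.6.0 and StringTie; the genome build, annotation and strand setting are not given in the sources used here. The authors deposited 1 table with estimated counts, TPM and FPKM per library, all scaled by them. The deposited FPKM values were not used. Between 10.87% and 11.48% of count values were not whole, so counts were rounded, and a read shared by similar genes may have been divided between them.

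Counts were tested in R 4.3.3 with edgeR 4.0.16 (filterByExpr, TMM, robust quasi-likelihood F-test, Benjamini-Hochberg adjustment over 14131 genes). The criterion was a log2 fold change of at least 1 in size and adjusted p of at most 0.05. The SE is the log2 fold change divided by the square root of F. Same-numbered libraries deviated together (correlations of deviations from the group means 0.13, 0.32 and 0.50). Control 2 with cKO 1 gave 0.14, and the other 5 unlike-numbered pairs were below 0. Deviations from a group mean sum to 0, so these values below 0 follow in part from the others and are no added support. The replicate number was taken as pairing the libraries from these same data and not from the labels, and p-values with the block may therefore be too small. The fit with the replicate number as a block is given where it changes a call. DESeq2 1.42.0, limma 3.58.1 (voom, or log2(TPM + 0.1) and log2(TPM + 1)), other scalings and filters, and leaving out each library were alternatives. The limit that a count of 0 allows covers counting error only. Levels between genes were compared in TPM. Ratios were tested by exact two-sided permutation of libraries (scipy 1.17.1). Shared 50-base windows and overlapping exons were read from GENCODE M21 (GRCm38), gene order and promoters from RefSeq.

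The keratins and lists were chosen with earlier results of these data known. Genes were named when they were keratins at 10 TPM or more in a group mean, keratins past the criterion in edgeR, the block or DESeq2, the classical pairs and the *Krt6*, *Krt7*, *Krt15*, *Krt16*, *Krt17*, *Krt19*, *Krt23* and *Krt75* genes, *Kdf1*, or up to 5 genes per list past the criterion. *Krt12*, *Krt20*, *Krt24*, *Krt26*, *Krt36*, *Krt42*, *Krt71*, *Krt73*, *Krt78*, *Krt79*, *Krt82*, *Krt84*, *Krt86*, *Krt88*, *Krt90*, *Krt222*, *Sprr3*, *Cnfn*, *Sfn*, *Sbsn*, *Dmkn*, *Lor*, *Tgm1*, *Krtdap*, *Calml3*, *Lypd3*, *Dsg2*, *Dsc2*, *Dsc3*, *Amelx*, *Ambn*, *Enam*, *Vim* and *Trp63* were added after their values were seen.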

Additional observations from a re-analysis of the deposited data

How the results depend on the processing

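For 16 named tested keratins the alternative fits gave 271 comparisons of a gene with its main result. These share fits and are not independent. Direction and side of the criterion were kept in 229, a call was lost in 19 and gained in 14, and the direction changed in 9. The count of keratins past the criterion was 2 by edgeR. With no filter on low counts it was also 2, but *Krt7* and *Krt75* (adjusted p 0.036 and 0.042) in place of *Krt6a* (0.054) and *Krt7*. It was 6 with DESeq2 and 6 with the replicate block. It was 0 in edgeR with DESeq2 size factors, with library size alone or with a filter of mean 1 CPM. The CPM of that filter was taken without the TMM factor, while the fit after it used TMM. Limma-voom and limma on log2(TPM + 1) also gave 0. In all these fits 12 to 14 keratins had an unadjusted p of at most 0.05. The count of keratins ranged from 0 to 6 when 1 library was left out: 6 without cKO 3, 3 without control 2 and 0 without control 1, control 3, cKO 1 or cKO 2, where 10 to 12 keratins had an unadjusted p of at most 0.05. Over all genes the edgeR count was 61, against 860 with the block, 980 with DESeq2, 103 with no filter, 52 and 16 with limma on log2(TPM + 0.1) and log2(TPM + 1), 6 with voom, 7 with DESeq2 size factors, 7 with the CPM filter, 9 with library size alone and 1 to 465 with 1 library left out. The replicate block changed no call of a named keratin other than *Krt14*, *Krt27*, *Krt75* and *Krt80*. The adjusted p of *Krt6a* was between 9.9e-12 and 0.092, and that of *Krt7* between 3.1e-07 and 0.076, over the alternatives that kept all libraries.

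The log2 fold change of *Krt19* was -0.05, and it turned to 0.0155 with library size alone, 0.0578 and 0.0462 on log2(TPM + 0.1) and log2(TPM + 1), 0.0271 with voom and 0.0059 with the replicate block, and ranged from -0.38 to 0.17 when 1 library was left out (0.16 without cKO 2, 0.17 without control 1, 0.12 without control 3). That of *Krt28* ranged from -0.31 (without cKO 3) to 0.80. The cause was not tested. The summed keratin log2 ratio stayed between -0.72 and -1.04 in its 8 alternatives, and the 14 keratins without overlap in CPM numbered 14 in TPM, an alternative chosen after seeing the data. Scaling moved the median log2 fold change of all genes to at most 0.053. The filter on low counts left 24 keratins without a test.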
